A study of Homo sapiens with 8 samples.

Results

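The 44 genes described here encode proteins of tight junctions, desmosomes, adherens junctions and gap junctions, together with trafficking proteins and membrane proteases of polarised epithelium. They were taken by gene symbol from a table of 27475 human genes in 8 RNA-seq libraries, and each symbol matched 1 entry. The libraries came from RT112 and UM-UC-3, established cell lines of human bladder cancer. Cells of each line were transfected for 72 h with 100 pmol of pooled siRNAs, 3 that target PAI-1 (siPAI-1) or a scrambled control (Scr), which gave 4 groups (RT112 Scr, RT112 siPAI-1, UM-UC-3 Scr and UM-UC-3 siPAI-1) of 2 libraries. The controls carry a transfected siRNA pool too, and each line is a single model, so a difference between the lines is a difference between these cultures. PAI-1 is a secreted inhibitor of plasminogen activators, and the study asked what its loss does to gene expression. The labels do not say whether the libraries of a group came from separate cultures. The study describes the knock-down as done in independent replicate experiments without tying them to libraries, so the p-values below measure the spread between these libraries, which may be technical.

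Epithelial cells hold together through several junctions. Tight junctions seal the space between cells below the apical surface, with claudins and MARVEL proteins spanning the membrane and zonula occludens proteins and cingulin on its inner face. Desmosomes tie neighbouring cells to the keratin filaments through desmogleins and desmocollins outside and plakoglobin, plakophilins and desmoplakin inside. Adherens junctions join cadherins to actin by way of catenins, and gap junctions are channels of connexins that let small molecules pass from cell to cell. In the bladder, the urothelium is known for its tight barrier against urine.

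Values are in TPM, the reads of a gene corrected for its length and scaled to the same total in each library, so that levels can be compared between genes. The estimated depth of the libraries was between 29.3 M and 34.2 M reads, though a depth 2 times as large fits the values too, and read numbers of single genes below would then be 2 times as large. Markers of epithelium differed between the lines: all 8 were higher in RT112, with a summed level of 12312.8 to 14407.7 TPM against 220.5 to 239.6 TPM in UM-UC-3. Of 7 urothelial markers, 5 were higher in RT112, UPK1A did not pass the test and UPK3A was at 0 in the Scr libraries of both lines. The mesenchymal markers summed to 110.1 to 176.2 TPM in RT112 and to 3093.6 to 3367.1 TPM in UM-UC-3, most of it VIM (2852.4 to 3142.2 TPM). Of 9 of them tested with Scr, however, 4 were higher in RT112 (CDH2, FN1, ACTA2 and LUM) and 3 were lower, and COL1A2 was at 0 in all libraries. Of 9 markers of blood and endothelium, PTPRC was at 0.03 TPM or less in all libraries, and their sums (16.5 to 20.6 TPM in RT112, 273.0 to 280.0 TPM in UM-UC-3) were nearly all CD68, a lysosomal protein. The library labelled RT112 siPAI-1 replicate 1 stood apart from the other RT112 libraries, with KRT5 at 592.9 TPM against 783.8 to 878.7 TPM.

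The DNA in front of 4 members that were found mainly in 1 line is given first, CRB3 and CLDN7 from RT112 and DSC3 and GJA1 from UM-UC-3. CRB3 and CLDN7 were picked as the members with the most matches to the motif below and the others as members without one, so the contrast between them follows from the choice. The capitals mark CAGGTG on either strand (read as CACCTG on the other), the E-box that ZEB and SNAI repressors are known to bind. Each is the RefSeq sequence (GRCh38.p14) of the 250 bases before the start of transcription, 5′ to 3′ in the direction of the gene. CRB3 (ENSG00000130545.15) is on the plus strand at chr19:6464021-6464270, CLDN7 (ENSG00000181885.18) on the minus strand at chr17:7262479-7262728, DSC3 (ENSG00000134762.16) on the minus strand at chr18:31042743-31042992 and GJA1 (ENSG00000152661.7) on the plus strand at chr6:121435396-121435645.
CRB3: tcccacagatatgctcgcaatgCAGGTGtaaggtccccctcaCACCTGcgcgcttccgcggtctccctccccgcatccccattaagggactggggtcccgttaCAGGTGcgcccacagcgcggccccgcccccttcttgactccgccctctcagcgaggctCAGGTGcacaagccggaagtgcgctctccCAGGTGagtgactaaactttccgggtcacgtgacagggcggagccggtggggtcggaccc
CLDN7: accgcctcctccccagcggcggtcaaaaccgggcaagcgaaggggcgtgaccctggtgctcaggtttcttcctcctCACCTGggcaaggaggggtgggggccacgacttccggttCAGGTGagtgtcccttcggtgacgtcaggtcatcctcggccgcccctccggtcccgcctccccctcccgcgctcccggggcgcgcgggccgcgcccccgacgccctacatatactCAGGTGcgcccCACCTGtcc
DSC3: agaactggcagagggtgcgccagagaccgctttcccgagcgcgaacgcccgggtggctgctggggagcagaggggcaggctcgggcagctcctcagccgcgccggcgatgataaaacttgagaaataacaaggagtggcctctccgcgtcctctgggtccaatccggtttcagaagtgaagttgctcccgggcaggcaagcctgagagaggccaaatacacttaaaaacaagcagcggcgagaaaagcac
GJA1: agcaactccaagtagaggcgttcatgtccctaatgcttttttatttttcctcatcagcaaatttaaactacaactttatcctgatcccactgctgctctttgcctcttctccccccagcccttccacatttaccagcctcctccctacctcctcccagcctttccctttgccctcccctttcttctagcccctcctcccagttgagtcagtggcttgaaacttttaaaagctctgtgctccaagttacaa
The CRB3 promoter holds 5 matches and the CLDN7 promoter 4, or 5 when the 50 bases after its start are included, while neither DSC3 nor GJA1 has one in this window. A second CLDN7 start in the table has none.

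Promoter windows from 250 bases before to 50 after a start were found for 28 of the 44 members, with 41 windows in all. CAGGTG was in 14 of the 41 windows (34.1%), which belong to 13 genes, against 20.6% of 35116 windows of all genes. Of the members called higher in RT112 with Scr, 9 had a match (CRB3, CLDN7, DSP, DSG2, JUP, RAB25, TJP3, DSC2 and CLDN3) and 8 had none (CLDN1, CLDN4, MARVELD2, CGN, DSG3, PKP1, PERP and LSR). A match was also found for GJB2, called lower, and for OCLN, TJP1 and CLDN6, not called. The GC box GGGCGG was in 26 of the windows (63.4%, against 45% of all) and TATAAA in 1 (2.44%, against 11.5%). Of the sites known for Grainyhead-like factors, AACNNGTT was in 3 windows (7.32%, against 3.52%) and AACCGGTT, which contains it, in 0 (against 0.134%). All motifs were searched on both strands. A match is a description of the letters and not a bound site, and windows of 1 gene can overlap.

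The first comparison asked how the junction genes differ between the lines with control siRNA. RT112 Scr held most of the junction genes at high level and UM-UC-3 Scr only a part of them. Of 43 members tested (CLDN8 was at 0 in all 4 Scr libraries), 31 were higher and 4 were lower in RT112 (limma, adjusted p under 0.05, called below). Of all 19201 genes tested, 25.3% were called higher and 26.3% lower, so the share of members called higher was far above the background and that called lower was below it. The members were chosen with earlier results of these data known, so this contrast is a description and not a test. Of 78 other junction genes tested, 39.7% were called higher and 30.8% lower. The median log2 difference of the members was 3.80 on the log2(TPM + 0.1) scale, which is the value of CLDN1, against a median of -0.06 over all genes. In RT112, 37 members were at 1 TPM or more in all 4 libraries, 27 at 10 TPM or more and 10 at 100 TPM or more. In UM-UC-3 these numbers were 17, 10 and 1, and 23 members stayed under 1 TPM in all 4 libraries against 6 in RT112.

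**Figure D1:**
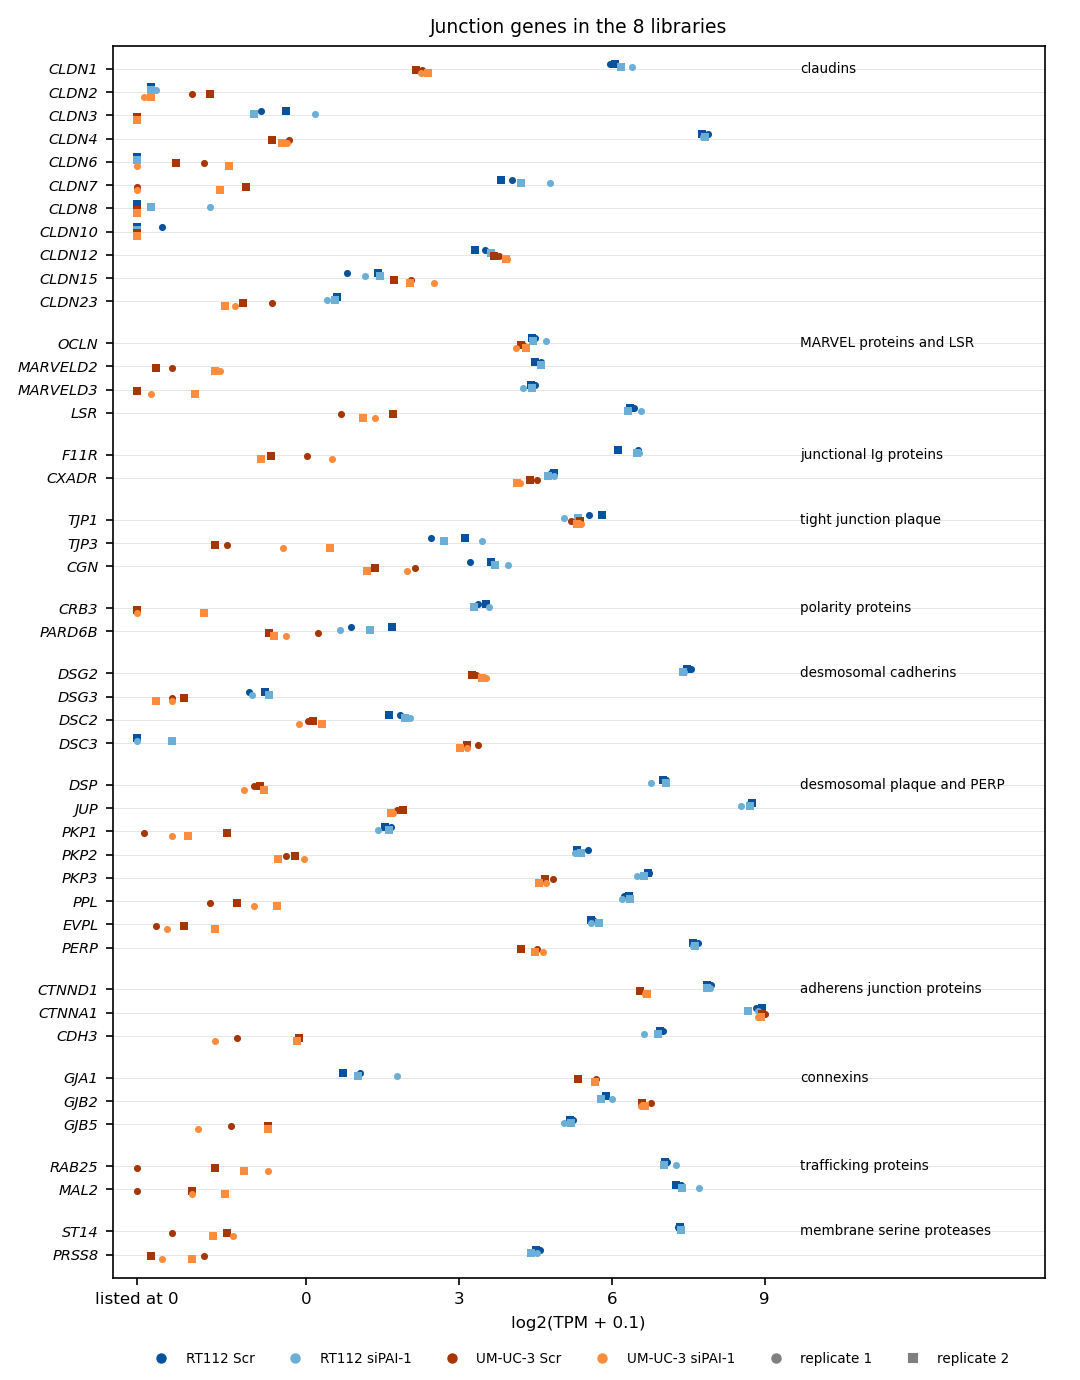
Level of each of the 44 junction genes in every library, as log2(TPM + 0.1), ordered by the role of the protein; colours give the group and shapes the replicate, and values of 0 sit at the left edge. The RT112 libraries lie to the right of the UM-UC-3 libraries for most members, while CTNNA1, OCLN, TJP1 and CLDN12 lie close together and DSC3 and GJA1 lie the other way round.

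The 44 genes summed to 3326.4 and 3277.1 TPM in the RT112 Scr libraries and to 953.7 and 907.3 TPM in the UM-UC-3 Scr libraries. CTNNA1, the alpha-catenin that links cadherins to actin, made 14.4% of the sum in RT112 and 54.3% in UM-UC-3. Without being called, it was at 458.4 and 494.0 TPM in RT112 Scr and at 512.5 and 497.2 TPM in UM-UC-3 Scr, where it was the only member at or above 100 TPM in all 4 libraries.

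The claudins, which set the tightness and ion selectivity of the seal, were divided: 5 of 11 were higher in RT112, 1 was lower and 5 were not called. CLDN4, a barrier claudin, was at 238.0 and 218.6 TPM in RT112 Scr and at 0.69 and 0.53 TPM in UM-UC-3 Scr. The RT112 mean was 374.2 times the UM-UC-3 mean, with a log2 difference of 8.34 (SE 0.16, limma adjusted p = 0.000245). CLDN1, which is known to be needed for the barrier of the skin, was at 62.1 and 66.8 TPM against 4.76 and 4.34 TPM, a difference of 3.80 (SE 0.10, limma adjusted p = 0.000296). CLDN7, at 16.4 and 14 TPM in RT112 Scr, was listed at 0 and at 0.34 TPM in UM-UC-3 Scr, a log2 difference of 6.18 (SE 0.79, limma adjusted p = 0.00522) that depends on the pseudocount. CLDN3 was low even in RT112, at 0.44 and 0.66 TPM, and was listed at 0 in all 4 UM-UC-3 libraries, so no fold can be given. CLDN23 was at 1.39 and 1.42 TPM against 0.53 and 0.32 TPM (log2 difference 1.55, SE 0.34, limma adjusted p = 0.0241).

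CLDN12 was not called, with 11.3 and 9.79 TPM in RT112 Scr and 13.6 and 12.7 TPM in UM-UC-3 Scr (limma adjusted p = 0.114), although all 4 UM-UC-3 libraries lay above all 4 RT112 libraries. It made 57.7% of the sum of the 11 member claudins in UM-UC-3 Scr (22.8 TPM ± 1.64, SD, n = 2). In RT112 Scr, CLDN4 made 70.8% of the sum of these 11 (322.6 TPM ± 12.4, SD, n = 2). These sums are a part of the claudins. The 13 other claudins with an entry summed to 79.2 and 72 TPM in UM-UC-3 Scr and to 55.5 and 56.1 TPM in RT112 Scr. CLDN15, a channel-forming claudin, was at 1.64 and 2.55 TPM in RT112 Scr and at 4.07 and 3.21 TPM in UM-UC-3 Scr and was not called in these libraries. CLDN2, another channel-forming claudin, was called lower in RT112, but its levels were near the lower limit of the tables in both lines (0.02 TPM in both RT112 Scr libraries, 0.11 and 0.17 TPM in UM-UC-3 Scr, log2 difference -0.99, SE 0.29, limma adjusted p = 0.0495). These correspond to an estimated 1 read in each RT112 library and 6 and 11 reads in UM-UC-3, and the call was lost with a pseudocount of 1 TPM (limma adjusted p = 0.088). CLDN6, CLDN8 and CLDN10 were at or near 0, with 0.25 TPM as the highest value in any library.

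Among the MARVEL proteins, OCLN went apart from MARVELD2 and MARVELD3. OCLN (occludin) was at 22.5 and 21.7 TPM in RT112 Scr and at 18.9 and 18.4 TPM in UM-UC-3 Scr, and was not called. MARVELD2 (tricellulin), which seals the points where 3 cells meet, was at 24.2 and 22.4 TPM in RT112 Scr and at 0.06 and 0.03 TPM in UM-UC-3 Scr, a ratio of means of 517.7 (log2 difference 7.34, SE 0.25, limma adjusted p = 0.000372). This ratio rests on an estimated 5 and 3 reads in UM-UC-3 Scr and was 121.6 with siPAI-1. MARVELD3 was at 22.5 and 21.1 TPM and was listed at 0 in both UM-UC-3 Scr libraries. LSR, the lipoprotein receptor that recruits tricellulin to those points, was at 86.9 and 81.6 TPM against 1.51 and 3.15 TPM (log2 difference 5.20, SE 0.37, limma adjusted p = 0.00121). OCLN was the only one of these 4 genes without a call, and MARVELD2 is its neighbour on chromosome 5.

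On the inner face of the tight junction, TJP1, the main scaffold of the zonula occludens, was at 47.1 and 55.8 TPM in RT112 Scr and at 36.7 and 41.2 TPM in UM-UC-3 Scr, without a call (limma adjusted p = 0.0542). TJP3, a scaffold found in epithelia, was at 5.36 and 8.63 TPM against 0.24 and 0.19 TPM, a log2 difference of 4.46 (SE 0.35, limma adjusted p = 0.00151). CGN (cingulin), which binds these scaffolds, was at 9.17 and 12.2 TPM against 4.28 and 2.45 TPM (log2 difference 1.68, SE 0.34, limma adjusted p = 0.0187). The CGN call was lost without RT112 Scr replicate 2 (limma adjusted p = 0.0641) and without UM-UC-3 Scr replicate 2 (limma adjusted p = 0.06). Of the immunoglobulin-like adhesion proteins, F11R (junctional adhesion molecule A) was at 91.7 and 69.5 TPM against 0.91 and 0.52 TPM, a ratio of means of 112.8 (log2 difference 6.66, SE 0.31, limma adjusted p = 0.000558). CXADR, the coxsackie and adenovirus receptor, differed far less, at 28.0 and 28.9 TPM against 22.9 and 20.9 TPM (log2 difference 0.38, SE 0.09, limma adjusted p = 0.0269), a call that was lost without a trend in the fit (limma adjusted p = 0.0689).

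CRB3, a membrane protein that marks the apical side, was at 10.2 and 11.5 TPM in RT112 Scr and was listed at 0 in both UM-UC-3 Scr libraries. PARD6B, a scaffold of the apical polarity complex, was at 1.73 and 3.11 TPM against 1.08 and 0.50 TPM and was not called. The replicates of each line differed more for PARD6B than for most members, and the groups did not overlap.

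In the desmosomal plaque, all 8 genes (PERP included) were higher in RT112 Scr, and their sum was 1033.2 TPM ± 9.23 (SD, n = 2) in RT112 Scr against 52.9 TPM ± 4.72 (SD, n = 2) in UM-UC-3 Scr. JUP (plakoglobin), shared by desmosomes and adherens junctions, was at 419.0 and 429.7 TPM against 3.32 and 3.63 TPM, a ratio of means of 122.1 (log2 difference 6.89, SE 0.08, limma adjusted p = 0.000208). DSP (desmoplakin), which binds the keratin filaments, was at 133.7 and 128.4 TPM against 0.39 and 0.43 TPM, a ratio of 319.6 (log2 difference 8.01, SE 0.12, limma adjusted p = 0.000242). The plakins PPL and EVPL, known from the cornified envelope, were at 75 and 80.6 TPM and at 49.7 and 47.8 TPM in RT112, and at 0.17 and 0.29 TPM and 0.03 and 0.09 TPM in UM-UC-3. Their ratios of means were 338.1 and 812.2.

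The plakophilins, which cluster the desmosomal cadherins, were graded. PKP2 was at 46.2 and 39.6 TPM against 0.66 and 0.76 TPM (log2 difference 5.73, SE 0.17). PKP1 was at 3.07 and 2.83 TPM against 0.01 and 0.24 TPM (log2 difference 3.98, SE 0.64). PKP3 was found in both lines, at 106.5 and 104.4 TPM against 28.6 and 25.5 TPM (log2 difference 1.96, SE 0.08), and made 51.2% of the plaque sum in UM-UC-3 Scr. PERP, a membrane protein of desmosomes and a target of p53, was at 206.6 and 193.5 TPM against 23 and 18.6 TPM (log2 difference 3.27, SE 0.12). The limma adjusted p of these 4 genes was between 0.000313 and 0.0098.

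Of the desmosomal cadherins, 3 were higher and 1 was lower in RT112. DSG2, the desmoglein of most epithelia, was at 187.2 and 177.4 TPM in RT112 Scr and at 9.92 and 9.44 TPM in UM-UC-3 Scr (log2 difference 4.22, SE 0.07, limma adjusted p = 0.000242). DSC2 was at 3.47 and 2.99 TPM against 0.93 and 0.99 TPM (log2 difference 1.65, SE 0.24, limma adjusted p = 0.00718), and DSG3 was at 0.36 and 0.47 TPM against 0.06 and 0.09 TPM (log2 difference 1.55, SE 0.31, limma adjusted p = 0.0185). DSC3 went the other way, with 10.4 and 8.79 TPM in UM-UC-3 Scr and an entry of 0 in both libraries of RT112 Scr. With DSG2 at 47.7% of the desmosomal cadherin sum in UM-UC-3 Scr and at 98% in RT112 Scr, UM-UC-3 held DSC3 and DSG2 at like levels while RT112 held almost only DSG2.

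Of the adherens junction members, CDH3 (P-cadherin) was at 128.3 and 123.2 TPM in RT112 Scr and at 0.29 and 0.81 TPM in UM-UC-3 Scr, a ratio of means of 228.6 (log2 difference 7.72, SE 0.45, limma adjusted p = 0.000822). CTNND1, the catenin that holds cadherins at the membrane, was at 248.2 and 235.0 TPM against 92.1 and 93.9 TPM (log2 difference 1.38, SE 0.05, limma adjusted p = 0.000434). The cadherin thus differed by far more than the catenins CTNND1 and CTNNA1.

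The connexins were the only group in which most members were lower in RT112 (2 of 3). GJA1, the connexin of many cell types that are not epithelial, was at 1.98 and 1.54 TPM in RT112 Scr and at 51.4 and 40.5 TPM in UM-UC-3 Scr, where the mean was 26.1 times as high (log2 difference -4.63, SE 0.20, limma adjusted p = 0.000515). GJB2, which is mutated in inherited deafness, was high in both lines, at 58.4 and 59.1 TPM against 108.9 and 95.9 TPM (log2 difference -0.80, SE 0.08, limma adjusted p = 0.00296). GJB5, a connexin of stratified epithelia, was at 37.8 and 35.9 TPM against 0.26 and 0.49 TPM (log2 difference 6.32, SE 0.30, limma adjusted p = 0.000579). The summed level of the 3 connexins was 97.3 TPM ± 1.11 (SD, n = 2) in RT112 Scr and 148.7 TPM ± 16.7 (SD, n = 2) in UM-UC-3 Scr.

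The trafficking proteins and membrane proteases (4 of 4 called higher in RT112) were near 0 in UM-UC-3. RAB25, a small GTPase of apical recycling, was at 136.3 and 132.5 TPM in RT112 Scr, and was listed at 0 and at 0.19 TPM in UM-UC-3 Scr (log2 difference 9.63, SE 0.56, limma adjusted p = 0.000839). MAL2, which carries proteins to the apical membrane, was at 164.2 and 153.4 TPM, and was listed at 0 and at 0.11 TPM (log2 difference 10.10, SE 0.41, limma adjusted p = 0.000472). Both of these differences depend on the pseudocount. ST14 (matriptase), a membrane serine protease that acts on epithelial barriers, was at 157.6 and 161.9 TPM against 0.06 and 0.24 TPM, a ratio of means of 1065.0 (log2 difference 9.42, SE 0.41, limma adjusted p = 0.000499). PRSS8 (prostasin), which works together with matriptase, was at 23.9 and 22.8 TPM against 0.15 and 0.02 TPM, a ratio of 274.6 (log2 difference 7.08, SE 0.43, limma adjusted p = 0.000907). In UM-UC-3 Scr, ST14 rested on an estimated 4 and 17 reads and PRSS8 on 5 and 1. Their differences thus depend on the pseudocount too, and with siPAI-1 the ratio of ST14 was 722.7.

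The comparison was repeated in the siPAI-1 libraries, which share none with the first. Of 43 members tested (CLDN10 was at 0 in all 4), 32 were higher and 4 lower in RT112, against a background of 26.2% and 26.1% of 19359 genes. The 31 members called higher with Scr were called higher again. DSC3, GJA1 and GJB2 were called lower again, and GJA1 was at 3.34 and 1.92 TPM in RT112 siPAI-1 against 51.1 TPM in both UM-UC-3 siPAI-1 libraries. In 1 fit only, PARD6B was called higher (siPAI-1), and CLDN15 (siPAI-1) and CLDN2 (Scr) were called lower. The PARD6B and CLDN15 calls were lost when any 1 of the 4 libraries was left out, with limma adjusted p between 0.0663 and 0.172 for PARD6B and between 0.0512 and 0.168 for CLDN15. The median difference was 3.08, the value of TJP3, against -0.02 over all genes.

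**Figure D2:**
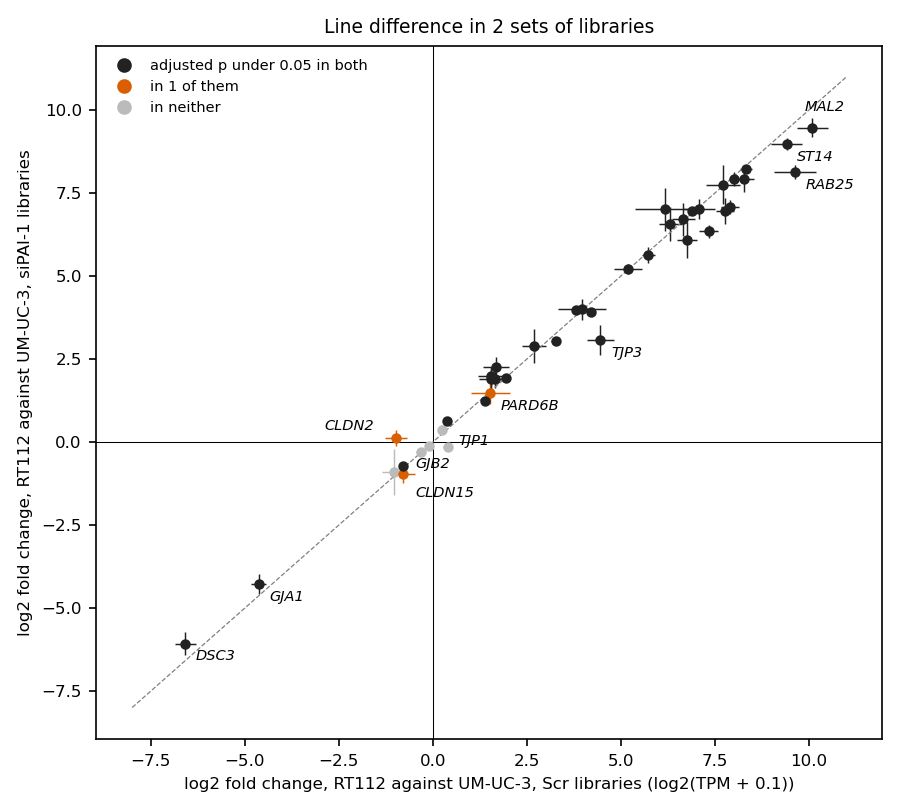
Log2 difference between RT112 and UM-UC-3 on the log2(TPM + 0.1) scale for the 42 members tested in both fits, in the Scr libraries (horizontal) and in the siPAI-1 libraries (vertical), with bars of 1 standard error, a dashed line of equal values and colours for the number of fits with a call (black both, orange 1, grey neither). The points lie along the line from DSC3 and GJA1 at the lower left to MAL2 at the upper right; differences of genes listed at 0 in a line depend on the pseudocount.

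Each UM-UC-3 library was also set against the mean of the 4 RT112 libraries, for the 30 members whose RT112 mean reached 10 TPM. The levels fell into a wide range: 12 of them (CLDN4, MARVELD2, MARVELD3, DSP, JUP, PPL, EVPL, CDH3, RAB25, MAL2, ST14 and PRSS8) were under 1% of RT112 in every UM-UC-3 library, and 9 (CLDN12, OCLN, TJP1, CGN, PKP3, CTNND1, CTNNA1, GJB2 and CXADR) were over 10% in every one. MAL2 was at 0 to 0.133% and ST14 at 0.0372 to 0.168% of the RT112 level. Between these, CLDN1 was at 6.09 to 7.2%, DSG2 at 5.35 to 6.49% and PERP at 9.41 to 12.6%.

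The lowest of these shares were of the size of the epithelial and urothelial markers. Over 11 such markers with at least 100 TPM in RT112, the median share was 0.042% in UM-UC-3 Scr replicate 1 and 0.152%, 0.154% and 0.191% in UM-UC-3 Scr replicate 2 and siPAI-1 replicates 1 and 2. KRT13, an abundant keratin of urothelium, was at 3829.1 to 4363.1 TPM in RT112, and at 0, 5.26, 4.57 and 4.08 TPM in these 4 UM-UC-3 libraries. Of the 11 markers, 9 were lowest in UM-UC-3 Scr replicate 1. Of the 30 members, 8 were lowest there, leaving out ties with another library at 0. These counts are of unlike genes: 9 of the 11 markers but only 12 of the 30 members were under 1% in every UM-UC-3 library. The median share of the members was 0.935% in UM-UC-3 Scr replicate 1 and 1.57%, 1.2% and 1.38% in the others, in the order above. MAL2 and ST14, the 2 members under 0.3% in every UM-UC-3 library, were among the 8. The 8 were TJP1, PPL, EVPL, CTNND1, LSR, RAB25, MAL2 and ST14. RAB25 and MAL2 were listed at 0 in UM-UC-3 Scr replicate 1. What these low levels in UM-UC-3 stem from was not tested.

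**Figure D3:**
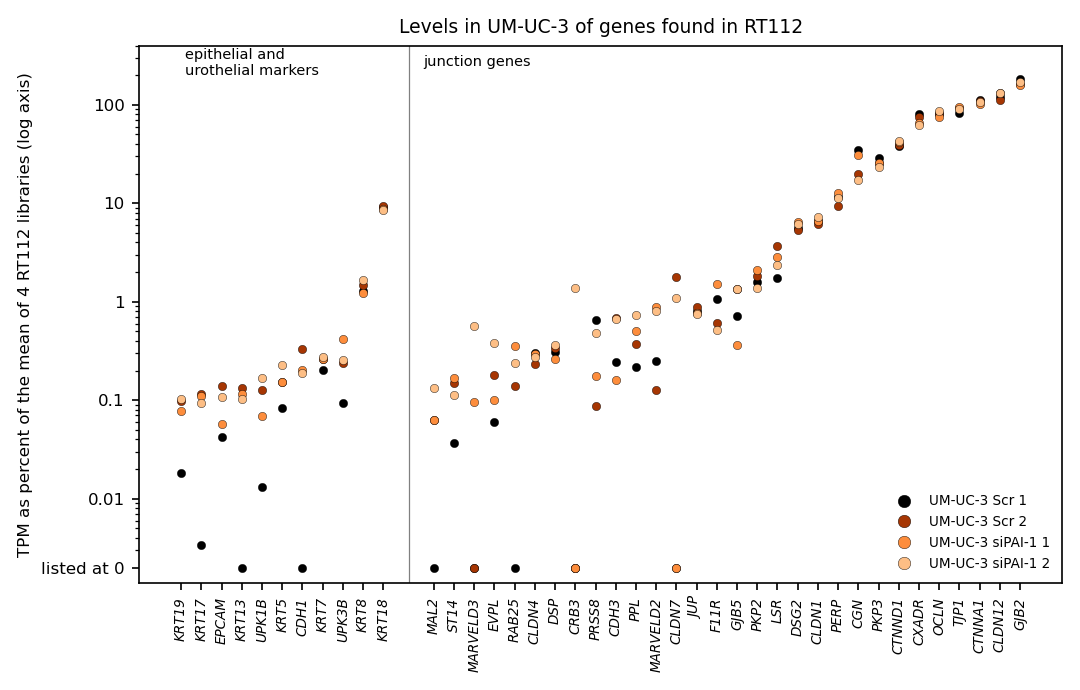
TPM of each UM-UC-3 library as a percent of the mean of the 4 RT112 libraries (log axis, values of 0 at the bottom), for 11 epithelial and urothelial markers and the 30 junction genes with at least 10 TPM in RT112. Most markers lie between 0.01 and 0.5% and are lowest in UM-UC-3 Scr replicate 1 (black), and the junction genes run from this level up to over 100% for CTNNA1, CLDN12 and GJB2.

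Several members lie side by side in the genome, and the loci were looked at after the values had been seen. With gaps of up to 500 kb, the members and 93 other junction genes form 11 loci (RefSeq, GRCh38.p14), and 2 of them hold genes called in opposite directions with Scr. The first is the desmosomal cadherin locus on chromosome 18, where DSC3 (chr18:30989365-31042742) lies 16.1 kb from DSC2 (chr18:31058840-31102421). DSC3 had a mean of 9.57 TPM in UM-UC-3 Scr and of 0 in RT112 Scr, while DSC2, DSG3 and DSG2 in the same locus were higher in RT112. DSC1, DSG1 and DSG4, which lie between them, had means of 0.115 TPM or less with Scr in both lines.

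The second is the connexin locus on chromosome 13. There GJB2 (chr13:20187470-20192938), high in both lines, is flanked by GJA3 (chr13:20138255-20161565) at 25.9 kb and GJB6 (chr13:20221962-20232319) at 29 kb. GJA3, known from the lens of the eye, was at 17.6 and 14.2 TPM in UM-UC-3 Scr and at 0.16 and 0.18 TPM in RT112 Scr. GJB6, a connexin of skin and inner ear, was at 63.5 and 61.6 TPM in RT112 Scr, and was listed at 0 and at 0.12 TPM in UM-UC-3 Scr. Each line thus held GJB2 together with the neighbour on 1 side only.

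In a locus on chromosome 16 the neighbours went together. CDH3 lies 3.52 kb from CDH1 (E-cadherin), which was at 149.6 and 141.1 TPM in RT112 Scr, and was listed at 0 and at 0.48 TPM in UM-UC-3 Scr. MARVELD2 and OCLN, 48.2 kb apart on chromosome 5, did not: OCLN was near 20 TPM in both lines and MARVELD2 in RT112 only.

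**Figure D4:**
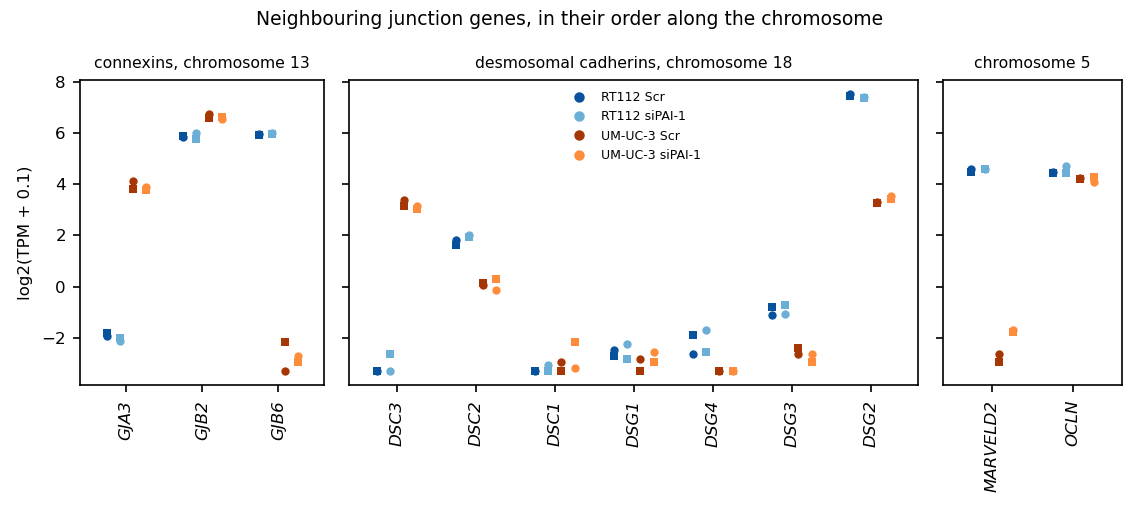
Levels of junction genes in 3 loci, in their order along the chromosome, as log2(TPM + 0.1); colours give the group, circles replicate 1 and squares replicate 2. GJA3 and DSC3 are high in UM-UC-3, GJB6 and DSG2 in RT112, and GJB2 and OCLN in both lines.

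Beyond the members, 93 other junction genes have an entry. Of 78 tested with Scr, 31 were higher (39.7%) and 24 lower (30.8%) in RT112, both shares above their backgrounds of 25.3% and 26.3%. The 5 most abundant of those higher in RT112 were SPINT2 and SPINT1, which inhibit matriptase, EPCAM, TMPRSS4, a membrane protease, and CTNNB1, the beta-catenin of adherens junctions. SPINT1 was at 245.9 and 236.1 TPM in RT112 Scr and at 0.02 and 0.22 TPM in UM-UC-3 Scr. The 5 most abundant of those lower were RAB11A, RAB11B, VCL, AMOTL2 and GJC1. Of these, GJC1, a connexin, was at 15.2 and 13.3 TPM in RT112 Scr and at 74.0 and 79.2 TPM in UM-UC-3 Scr. In the siPAI-1 libraries, 31 of 81 were higher and 20 lower.

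Of 18 transcription factors known to act on epithelial genes, 13 were higher and 5 lower in RT112 with Scr, and so they were with siPAI-1. Of the 5 repressors of epithelial genes, ZEB1, ZEB2, SNAI1 and TWIST1 were lower in RT112. ZEB1 was at 0.24 and 0.21 TPM in RT112 Scr and at 43.1 and 44 TPM in UM-UC-3 Scr, and ZEB2 at 0.10 and 0.03 TPM against 31.9 and 29.6 TPM. The fifth, SNAI2, named after its values were seen, was at 68.2 and 70.4 TPM in RT112 Scr and at 16.4 and 15.7 TPM in UM-UC-3 Scr and was thus higher in RT112. Of the 13 activators, 12 were higher in RT112, with ELF3, KLF5, PPARG, GATA3 and GRHL2 the most abundant, and KLF4 was lower. GRHL2, a Grainyhead-like factor, was at 80.9 and 76.0 TPM in RT112 Scr, and was listed at 0 and at 0.28 TPM in UM-UC-3 Scr.

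The second question was whether knock-down of PAI-1 changed the junction genes within a line. No member passed in either line (limma adjusted p under 0.05, 0 of 41 tested in UM-UC-3 and 0 of 43 in RT112), and over all genes the percent called was 0 in both. The smallest adjusted p of a member was 0.791 in UM-UC-3 and 0.838 in RT112. The exceptions when 1 library was left out were RAB25 in UM-UC-3 without Scr replicate 2 (log2 difference 2.33, limma adjusted p = 0.0417), where the remaining Scr library was listed at 0, and CLDN8 in RT112 without siPAI-1 replicate 2 (log2 difference 1.43, limma adjusted p = 0.00762), from an estimated 8 reads in the remaining library. The median log2 difference of the members was 0.0066 in UM-UC-3 and 0.02 in RT112, against -0.0051 and 0.01 over all genes. The summed level of the 44 genes was 915.3 TPM ± 17.4 with siPAI-1 and 930.5 TPM ± 32.8 with Scr in UM-UC-3, and 3243.7 TPM ± 42.2 and 3301.8 TPM ± 34.9 in RT112 (SD, n = 2).

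Of the 41 members tested in UM-UC-3, 2 passed an unadjusted p of 0.05 with a higher level after siPAI-1 and 2 with a lower one, against 2.6% and 3.41% of 18528 genes. TJP3 was at 0.24 and 0.19 TPM with Scr and at 0.63 and 1.28 TPM with siPAI-1 (log2 difference 1.68, SE 0.50, limma adjusted p = 0.791). MARVELD2 was at 0.06 and 0.03 TPM with Scr and at 0.21 and 0.19 TPM with siPAI-1 (log2 difference 1.06, SE 0.38, limma adjusted p = 0.818), which is an estimated 5 and 3 reads against 21 and 17. Both groups were apart in these genes, yet both genes stayed far below their RT112 levels. CXADR was at 22.9 and 20.9 TPM with Scr and at 18.3 and 17.5 TPM with siPAI-1 (log2 difference -0.29, SE 0.10, limma adjusted p = 0.808). CLDN2 was at 0.11 and 0.17 TPM with Scr and at 0.01 and 0.02 TPM with siPAI-1 (log2 difference -1.05, SE 0.37, limma adjusted p = 0.812), from an estimated 6 and 11 reads to 1 read in each library. CXADR is the only one of the 4 with a level above 2 TPM.

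The groups did not overlap for 8 members higher and 5 lower with siPAI-1 in UM-UC-3, where 15.1% and 17.1% of all genes showed this. Of the 8, MARVELD2, MARVELD3, PPL, RAB25 and TJP3 were under 2 TPM in all 4 UM-UC-3 libraries. RAB25, PPL and the epithelial markers KRT5 and KRT7 were lowest in Scr replicate 1. Without this library the log2 difference of RAB25 went from 1.56 to 0.80 and that of PPL from 0.82 to 0.55. TJP3 (1.79), MARVELD2 (1.21) and MARVELD3 (0.70) did not come down. These directions follow from the Scr values and are no separate check. TJP3 and MARVELD2 were higher in Scr replicate 1 than in Scr replicate 2, and MARVELD3 was listed at 0 in both. The others of the 8, CLDN12, CTNND1 and DSG2, were well expressed, with CLDN12 at 13.6 and 12.7 TPM with Scr and at 15.2 and 15.1 TPM with siPAI-1.

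Of the 43 members tested in RT112, 1 passed an unadjusted p of 0.05 with a higher level after siPAI-1 and 1 with a lower one, against 3.35% and 2.42% of 18437 genes. TJP1 was at 47.1 and 55.8 TPM with Scr and at 33.1 and 40.1 TPM with siPAI-1 (log2 difference -0.49, SE 0.14, limma adjusted p = 0.838). CLDN1 was at 62.1 and 66.8 TPM with Scr and at 83.8 and 72.1 TPM with siPAI-1 (log2 difference 0.27, SE 0.10, limma adjusted p = 0.838). CLDN7 had the next smallest p and was at 16.4 and 14 TPM with Scr and at 27.5 and 18.6 TPM with siPAI-1 (log2 difference 0.57, SE 0.22, limma adjusted p = 0.838). In each of the 3 genes siPAI-1 replicate 1 was farthest from the Scr libraries. This library, the one that stood apart, also held the highest values of TJP3 (10.9 TPM), MAL2 (210.3 TPM), CGN (15.5 TPM), GJA1 (3.34 TPM) and CLDN3 (1.03 TPM) among the RT112 libraries. Without it, the log2 difference was 0.16 for CLDN1 (limma unadjusted p = 0.217), -0.35 for TJP1 (limma unadjusted p = 0.0548) and 0.29 for CLDN7, and it was -0.07 for TJP3, 0.06 for MAL2, 0.28 for CGN and 0.13 for GJA1. The unadjusted p of CLDN1 was above 0.05 under 7 of the 12 alternatives, and that of TJP1 under 3. The groups did not overlap for 7 members higher and 5 lower, against 18% and 14.7% of all genes.

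A test of the difference between the lines in the knock-down effect called 0 of the 44 members, with a smallest adjusted p of 0.642, and 0% of 20274 genes. The unadjusted p was under 0.05 for 1 member with a higher effect in RT112 than in UM-UC-3 and for 4 with a lower one, against 4% and 2.76% of all genes. The 1 was CLDN2, with a difference of effects of 1.11 (SE 0.34), and the 4 were MARVELD2 (-0.99), PPL (-0.83), TJP1 (-0.56) and DSG2 (-0.30). DSG2 was also the 1 member whose groups were apart in both lines but in opposite directions, which 5.14% of all genes showed.

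**Figure D5:**
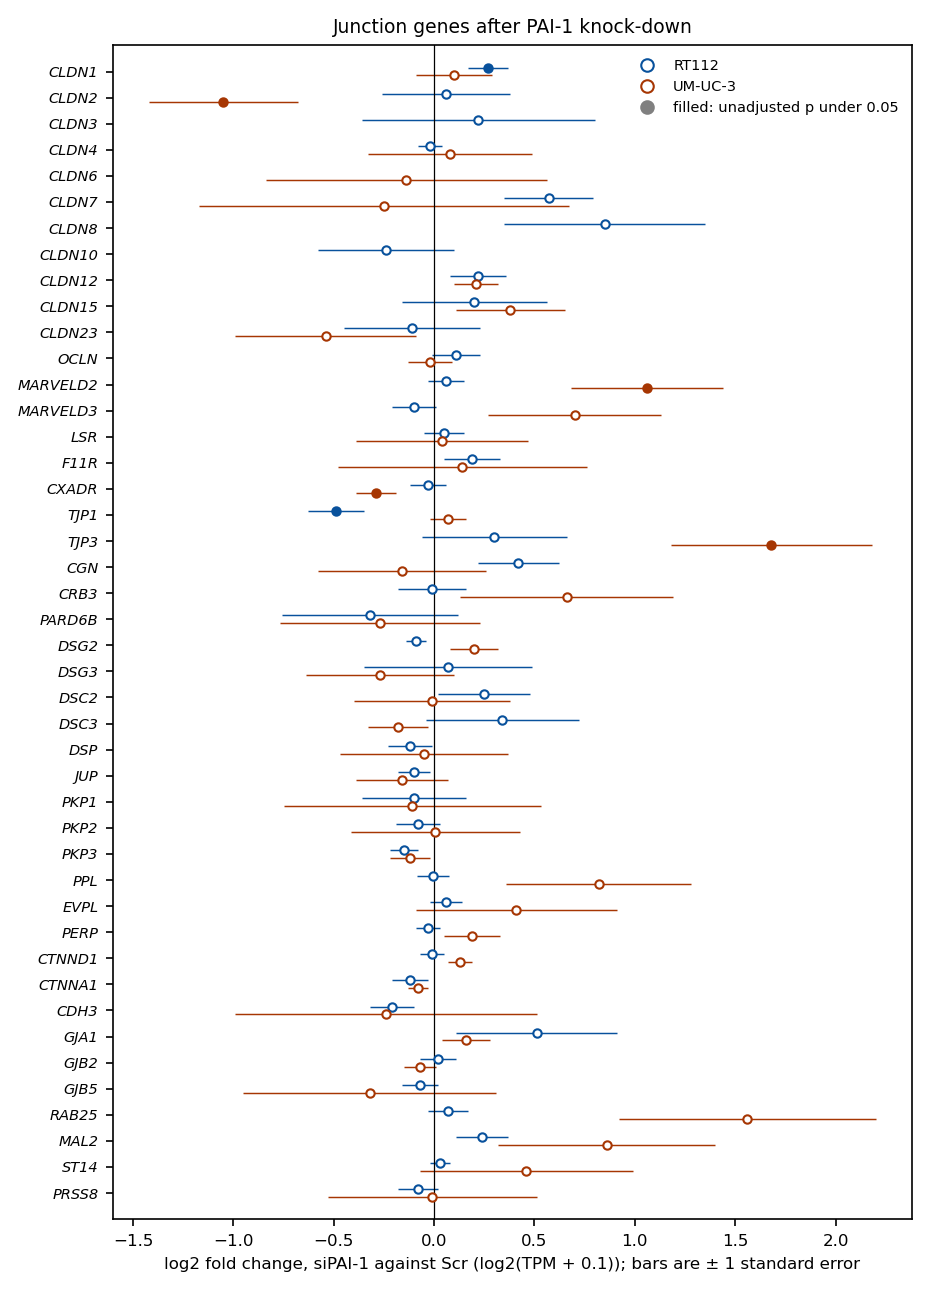
Log2 difference between siPAI-1 and Scr on the log2(TPM + 0.1) scale for each member in RT112 (blue) and UM-UC-3 (brown), with bars of 1 standard error and filled points at an unadjusted p under 0.05. The points lie around 0 in both lines, the bars are wide for members of low level such as CLDN7 and RAB25 in UM-UC-3, and no point passed the adjusted test.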

How the data were processed

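RNA-seq libraries of mRNA (75-base single reads) from UM-UC-3 and RT112 were analysed from the tables of TPM and FPKM per gene that the authors deposited, rounded to 2 decimals. Per the submitters' processing notes, STAR 2.5.0 and RSEM 1.2.25 with GRCh38 were used, and RSEM divides reads that match several genes among them. The authors' methods name cutadapt, STAR, featureCounts and DESeq2. The deposited TPM values carry no depth and were scaled by the authors to the same sum in each library; the deposited FPKM values served for an alternative and for the depth, found as the number of reads (searched from 20 M to 45 M) that turns low FPKM values into whole reads. A depth 2 times as large does so too. Read numbers of a gene were estimated at the smaller depth from its longest annotated transcript, and reflect counting error alone. An entry of 0 can be a failed estimate and is reported as listed at 0. Of 27567 entries, 92 spike-ins were left out.

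Libraries were grouped by cell line and siRNA from their labels. Each comparison was fitted with limma 3.58.1 in R 4.3.3 (lmFit and eBayes with a trend, a two-sided test) on log2(TPM + 0.1). Genes at 0 TPM in every library of a fit were dropped, and p-values were adjusted by the Benjamini-Hochberg method across the remaining genes. Fold changes on this scale understate the change of low genes, and a fold against a group at 0 is not given. The fits were tested on simulated data with 200 changed genes among 18571 for RT112 against UM-UC-3 with Scr, where 93 of 100 genes with a 4-fold and 32 of 100 with a 2-fold change were recovered. For siPAI-1 against Scr these numbers were 95 and 46 in UM-UC-3 (17892 genes) and 92 and 47 in RT112 (17834 genes). The changed genes all had a mean of at least 1 TPM. The spread beyond counting error was set to the same value for every gene and library and was not taken from these data.

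The members and lists were chosen with earlier results of these data known. All members are named; fold changes or ratios of means are given for members called in the Scr comparison whose groups were both above 0, and for the knock-down for members with an unadjusted p under 0.05 or the 3 smallest p of a line. Of the other lists, the 5 most abundant called genes per direction are named. The settings tried instead were pseudocounts of 1 and 0.01 TPM, FPKM values, rescaling by the median ratio, a mean of at least 1 TPM, a replicate block, no trend, 1 fit over all 8 libraries and each library left out. Coordinates and promoters are from RefSeq (GRCh38.p14). Some genes are not reported here. A planned comparison of claudin proteins was not made here. Plots used Python 3.11.15 with matplotlib 3.10.9.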

Additional observations from a re-analysis of the deposited data

Results flagged for a closer look

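DSG2 was set apart for its opposite differences after knock-down in the lines. In UM-UC-3 it was at 9.92 and 9.44 TPM with Scr and at 11.5 and 10.8 TPM with siPAI-1, a log2 difference of 0.20. In RT112 it was at 187.2 and 177.4 TPM with Scr and at 171.8 and 169.6 TPM with siPAI-1, a log2 difference of -0.09. Both libraries of a group lay on the same side in each line, and the difference of the effects was -0.30 (SE 0.09, limma unadjusted p = 0.0174, adjusted p = 0.642), which did not pass the adjusted test. Of 20274 genes, 5.14% moved in opposite directions with groups that did not overlap, and DSG2 was the 1 member of 44 that did.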

How the results depend on the processing

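Of 1330 values of 109 results recomputed under the alternatives, 0 turned direction. These results held only 12 fold changes of the knock-down and its difference, and the other knock-down effects were not scored. Some of those turned when 1 library was left out. CDH3 in UM-UC-3 went from -0.24 to 0.37 without Scr replicate 2, and CGN in UM-UC-3 from -0.16 to 0.23 without Scr replicate 1. The counts of members called in the line comparison stayed within 1.5 times the main count under every alternative. Rescaling or FPKM moved the median of all genes by 0.04 or less (log2).

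The line calls that were lost, besides those in the text, were CLDN2 with Scr with FPKM (adjusted p = 0.05), rescaling (0.055) and the replicate block (0.131), and CXADR with Scr without trend (0.0689). Replicates with the same number did not deviate together (correlations of -0.043 to 0.098), and with the replicate block PARD6B (adjusted p = 0.0548) and CLDN15 (0.0725) with siPAI-1 were lost too.

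For the knock-down, counts of members at an unadjusted p under 0.05 are small and moved easily. In UM-UC-3 those higher were 1 with a pseudocount of 0.01 TPM, 0 with a mean of at least 1 TPM, 1 with the replicate block and 6 in 1 fit over all 8 libraries. Those lower were 1 with a pseudocount of 1 TPM, with the mean filter, with the replicate block and without trend. In RT112 those higher were 0 with FPKM, in 1 fit over all 8 libraries and without trend, and 2 with the mean filter and with the replicate block, and those lower were 0 without trend. For the difference between the lines those higher were 0 with the mean filter, and those lower were 2 with a pseudocount of 1 TPM and without trend. Over all genes, 1 was called lower in UM-UC-3 with the mean filter, 2 were called higher in RT112 in 1 fit over all 8 libraries, and 4 higher and 3 lower for the difference without trend. The cause was not tested.

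When 1 library was left out, the lone library of its group was assumed to vary like the other groups. Genes called were then 26 to 147 higher and 13 to 161 lower in UM-UC-3, 16 to 274 and 25 to 101 in RT112, and 0 to 101 and 0 to 42 for the difference. Members called higher were 0 to 1 in each. They were RAB25 in UM-UC-3 without Scr replicate 2 (log2 difference 2.33, adjusted p = 0.0417), and CLDN8 in RT112 without siPAI-1 replicate 2 (1.43, adjusted p = 0.00762) and in the difference (adjusted p = 0.0461), from an estimated 8 reads in 1 library. Members at an unadjusted p under 0.05 were 3 to 8 higher and 2 to 4 lower in UM-UC-3, 0 to 4 and 1 to 1 in RT112, and 1 to 3 and 2 to 7 for the difference.

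With 2 libraries a group, 46 (UM-UC-3) and 47 (RT112) of 100 simulated 2-fold changes were called in the knock-down fits, which limits what these comparisons can detect.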
